A study of Mus musculus with 65 samples.

Results

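The genes described here encode the L-type calcium channel pores of neurons and the beta subunits of voltage-gated calcium channels. They are Cacna1c and Cacna1d, which encode pore-forming alpha1 subunits, and Cacnb1, Cacnb2, Cacnb3 and Cacnb4, which encode the beta subunits. They were taken by gene symbol, and all 6 were found among the 11875 uniquely named genes of the deposited table. L-type channels open when a neuron is depolarised, inactivate slowly, and carry calcium that drives pacemaking, dendritic signals and calcium-dependent transcription. A beta subunit binds the cytoplasmic face of the pore subunit, brings the channel to the membrane and sets how it opens and inactivates, and it serves P/Q-type, N-type and R-type pores as well as L-type ones.

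The cells were HSD2 neurons of the nucleus of the solitary tract, a brainstem nucleus that receives visceral signals; these neurons carry Hsd11b2, whose enzyme shields the mineralocorticoid receptor from glucocorticoids. Of the 65 cells, 32 were from mice fed a low sodium diet and 33 from mice fed standard chow. All mice were males of a mixed strain carrying Hsd11b2-Cre and the Ai9 reporter, so a cell was red if the driver had been active in it at any time, and red cells were picked by hand after papain digestion and made into Smart-Seq2 libraries. Neither the animals nor their ages are named in the labels, so each diet counts as 1 sample, every SD below is a spread over cells, and no difference between diets has a replicate check or a p-value. The protocol label names Arc-ME as the digested tissue while the tissue label of every sample names the nucleus of the solitary tract, and the tissue label was followed.

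Reads over the listed genes numbered 50540 to 5319462 per low-sodium cell (median 694430) and 50078 to 3244893 per chow cell (median 602351), and 1 read was worth 0.16 to 16.1 counts per 1000000 (CPM). In 9 cells, all of them low-sodium, the CPM summed to more than 1200000. The other 23 low-sodium cells had a median of 1088899 reads, and the diet difference of each of the 6 genes is given with and without the 9. At least 3 of 8 pan-neuronal markers exceeded 10 CPM in all 65 cells, and 3 or more of Hsd11b2, Nr3c2, Agtr1a and Slc17a6, which mark HSD2 neurons, did so in 31 of 32 low-sodium and all 33 chow cells. At least 3 markers of a non-neuronal type did so in 36 cells: astrocyte markers in 11 low-sodium and 14 chow cells, oligodendrocyte markers in 13 and 12, and mural cell markers in 2 and 1. The summed astrocyte markers (8 of 8 measured) ran from 141 to 1619 CPM in low-sodium cells and from 131 to 5582 CPM in chow cells, and the oligodendrocyte markers (7 of 8) from 17.1 to 15520 CPM and from 0 to 8135 CPM. Some of these markers were widespread: Aldoc was above 0 in all 65 cells, Cnp in 58 and Mbp in 54. Others were rarer, such as Aqp4 in 20 cells, Gja1 in 19 and Mag in 11. A count of 3 markers can thus rest partly on transcripts found in most cells. None of 8 microglial markers is among the listed genes.

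The 6 genes lie on 5 chromosomes and fall into a long and a short class (GRCm38, GENCODE M21). Cacna1c spans 609 kb on the minus strand of chromosome 6 (118587240 to 119196418), and Cacna1d spans 452 kb on the minus strand of chromosome 14 (30039939 to 30491455). Among the beta genes, Cacnb2 spans 385 kb (chromosome 2, 14603088 to 14987908, plus strand) and Cacnb4 249 kb (chromosome 2, 52428320 to 52676831, minus strand). Cacnb1 spans 21.5 kb (chromosome 11, 98001508 to 98023034, minus strand) and Cacnb3 13.7 kb (chromosome 15, 98630840 to 98644529, plus strand). The 3' end of Cacna1d shares 589 exonic bases with Chdh on the other strand. Whether strand was used in counting is not given in the sources used here, so reads in that stretch could belong to either gene. Exons of Cacnb1, Cacnb2 and Cacnb4 also overlap non-coding or pseudogene models that are not among the listed genes.

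Because mineralocorticoid and glucocorticoid receptors bind DNA at pairs of the hexamer AGAACA, read TGTTCT on the opposite strand, the promoters of the 6 genes were searched for it on both strands. RefSeq gives 14 promoter windows for them (GRCm38.p6, 250 bases before to 50 after each start), and 3 of the 14 hold the hexamer. The 3 windows that hold it are shown, with the hexamer in capitals and each written in the direction of its gene.
Cacna1c, chr6:118757925-118758224, minus strand: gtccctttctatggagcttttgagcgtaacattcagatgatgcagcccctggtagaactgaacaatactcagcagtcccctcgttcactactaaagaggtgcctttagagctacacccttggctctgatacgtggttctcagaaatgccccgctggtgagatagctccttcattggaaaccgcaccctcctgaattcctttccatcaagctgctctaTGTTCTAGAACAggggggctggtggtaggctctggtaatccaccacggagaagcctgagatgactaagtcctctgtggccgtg
Cacna1d, chr14:30491107-30491406, minus strand: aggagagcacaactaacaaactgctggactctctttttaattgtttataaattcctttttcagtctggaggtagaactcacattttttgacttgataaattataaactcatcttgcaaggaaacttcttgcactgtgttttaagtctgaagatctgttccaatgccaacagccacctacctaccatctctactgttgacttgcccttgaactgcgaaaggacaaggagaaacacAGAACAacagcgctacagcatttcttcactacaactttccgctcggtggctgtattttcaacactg
Cacnb2, chr2:14823842-14824141, plus strand: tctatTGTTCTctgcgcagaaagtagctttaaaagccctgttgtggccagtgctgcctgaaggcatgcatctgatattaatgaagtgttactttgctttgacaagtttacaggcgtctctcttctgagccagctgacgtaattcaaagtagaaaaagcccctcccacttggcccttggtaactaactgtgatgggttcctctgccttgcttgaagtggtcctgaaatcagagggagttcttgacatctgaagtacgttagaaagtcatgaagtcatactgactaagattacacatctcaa
In the Cacna1c window the hexamer stands on both strands without a gap, beginning 33 and 27 bases before the start, in 1 of 3 Cacna1c windows. The hexamer begins 16 bases before the start in 1 of 2 Cacna1d windows and 245 bases before it in 1 of 2 Cacnb2 windows. No window of Cacnb1, Cacnb3 or Cacnb4 holds it. The hexamer is common: 19.0% of all 32851 windows hold it, against 21.4% of these 14. The gapless pair, picked out after the sequence was seen, occurs in 8 of all windows. AGAACA followed after 3 bases by TGTTCT, the opposite order to that of the Cacna1c pair, occurs in 3 of all windows and in none of the 14. Pairs in other orders or with other gaps were not counted. These matches describe the letters of the windows, and the files hold no measure of receptor binding.

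Cacna1c encodes the L-type pore subunit that heart, smooth muscle and most brain neurons share. In low-sodium cells its level, in log2(CPM + 1), ran from 0 to 9.40 with a median of 5.06, against 0 to 8.27 with a median of 3.95 in chow cells. The ranges overlapped over nearly their whole length, and 22 of 32 low-sodium cells lay above the chow median. The mean was 4.91 ± 2.66 in low-sodium cells and 3.49 ± 2.38 in chow cells (SD over cells), a difference of 1.42 that is smaller than either SD. Transcripts were found in 28 of 32 low-sodium cells (87.5%, exact 95% interval 71.0 to 96.5%) and 26 of 33 chow cells (78.8%, 61.1 to 91.0%), so the groups differed little in the share of cells with the gene. At 10 CPM or more they stood further apart, with 26 of 32 low-sodium cells (19 of 23 without the 9) and 18 of 33 chow cells.

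Part of the Cacna1c difference sat in the 9 low-sodium cells with high CPM sums. These 9 cells had 6.33 ± 3.74 log2(CPM + 1), whereas the other 23 low-sodium cells had 4.35 ± 1.93. Without the 9 the diet difference was 0.86, under the size of 1 that is used as a mark here. On the linear scale the contrast was larger: Cacna1c averaged 107 ± 177 CPM in all low-sodium cells, 38.2 ± 44.0 CPM in the 23 and 31.9 ± 57.6 CPM in chow cells. As a log2 ratio of mean CPM plus 1, the difference was 1.72 with the 9 cells and 0.25 without them. The CPM scale of these cells is unknown. With every cell's CPM rescaled to the same sum, the Cacna1c difference was 1.27, and 0.89 without the 9. With median-of-ratios size factors it was 1.49. Whether either scale is the right one for these cells was not tested.

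Cacna1d encodes the L-type pore subunit that opens at more negative voltages and supports pacemaker firing in several kinds of neuron. Its log2(CPM + 1) ran from 0 to 9.09 with a median of 6.57 in low-sodium cells, against 0 to 8.45 with a median of 4.97 in chow cells. Low-sodium cells were concentrated in the upper part of the shared range, 24 of 32 of them above the chow median. The mean was 5.79 ± 2.62 in low-sodium cells and 4.71 ± 2.24 in chow cells, a difference of 1.09, and 1.14 without the 9 cells. The gene was found in nearly the same share of cells of each diet, 28 of 32 low-sodium cells (87.5%, 71.0 to 96.5%) and 29 of 33 chow cells (87.9%, 71.8 to 96.6%). The contrast lay in the amount: among cells with the transcript the mean was 6.62 ± 1.47 in the 28 low-sodium cells and 5.35 ± 1.47 in the 29 chow cells. Levels of at least 100 CPM were reached by 15 of 32 low-sodium cells and 5 of 33 chow cells, and by 10 of 23 without the 9. The difference is close to the mark of 1, and it was 0.94 without any 1 of the 4 chow cells at 0 (neurons 1, 23, 45 and 49) and 0.98 without low-sodium neuron 14 or 48. Chdh, which shares exonic bases with it, differed by -0.37 (-0.30 without the 9 cells). Dcp1a, which overlaps the Cacna1d locus but no exon, differed by -1.01 (-1.05 without the 9), and Dcp1b, which overlaps the Cacna1c locus in the same way, by 1.50 (1.71 without the 9).

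**Figure D1:**
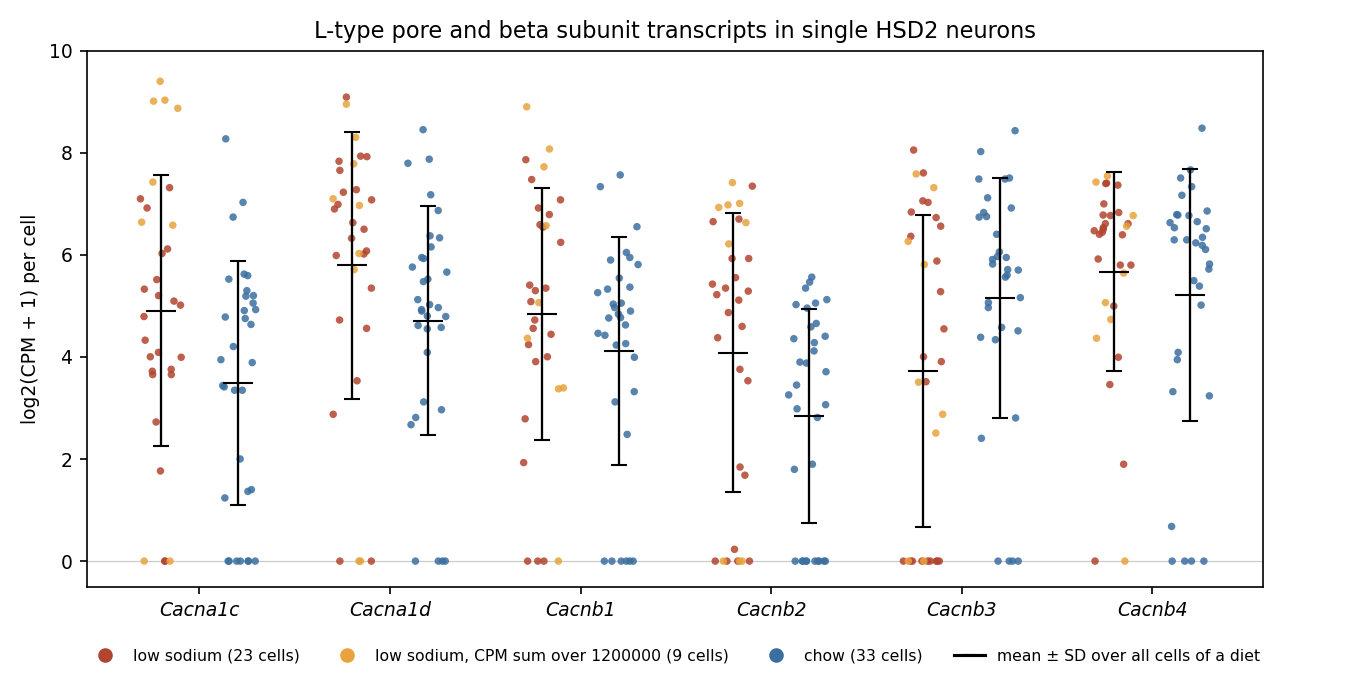
Level of each of the 6 transcripts in every cell, in log2(CPM + 1), with low-sodium cells left of chow cells for each gene; yellow points are the 9 low-sodium cells with a CPM sum over 1200000, and bars are the mean ± SD over all cells of a diet. The 4 highest Cacna1c cells are yellow, Cacna1d is shifted up in low-sodium cells, and Cacnb3 has 11 low-sodium and 4 chow cells at 0.

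Cacnb1 encodes the beta subunit that skeletal muscle needs for excitation-contraction coupling and that the brain also makes. Its log2(CPM + 1) ran from 0 to 8.90 (median 5.07) in low-sodium cells and from 0 to 7.57 (median 4.77) in chow cells. The groups overlapped almost completely, with 17 of 32 low-sodium cells above the chow median. The mean was 4.84 ± 2.47 in low-sodium cells and 4.12 ± 2.23 in chow cells, a difference of 0.72, and 0.54 without the 9 cells. The sign depended on which cells were used. In cells with non-neuronal markers Cacnb1 averaged 5.53 ± 1.54 in 17 low-sodium cells and 3.71 ± 2.19 in 19 chow cells. In cells without them it averaged 4.05 ± 3.09 in 15 low-sodium cells and 4.68 ± 2.24 in 14 chow cells, a difference of -0.63. What part those markers' RNA had in this was not tested.

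Cacnb2 encodes a beta subunit, needed in the embryonic heart, with isoforms that slow inactivation. Its log2(CPM + 1) ran from 0 to 7.42 with a median of 5.17 in low-sodium cells, against 0 to 5.56 with a median of 3.45 in chow cells. No chow cell reached 100 CPM (0 of 33, which allows a share of up to 10.6% by the exact interval), while 6 of 32 low-sodium cells did and 2 of 23 without the 9. The mean was 4.08 ± 2.73 in low-sodium cells and 2.84 ± 2.10 in chow cells, a difference of 1.24, and 1.05 without the 9 cells. Cells with the transcript numbered 25 of 32 in low sodium (78.1%, 60.0 to 90.7%) and 23 of 33 in chow (69.7%, 51.3 to 84.4%). Among them the mean was 5.22 ± 1.85 in low-sodium cells and 4.07 ± 1.07 in chow cells. Leaving out both the 9 cells and those with non-neuronal markers left 10 low-sodium and 14 chow cells and a difference of 0.59.

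Cacnb3 encodes a beta subunit of neurons and smooth muscle that also partners N-type pores, and it was the 1 gene of the 6 whose mean was lower in low-sodium cells. Its log2(CPM + 1) ran from 0 to 8.05 with a median of 3.96 in low-sodium cells, against 0 to 8.43 with a median of 5.71 in chow cells. The ranges were nearly equal, and 19 of 32 low-sodium cells lay below the chow median. The mean was 3.73 ± 3.06 in low-sodium cells and 5.16 ± 2.35 in chow cells, a difference of -1.43, and -1.53 without the 9 cells. Here the contrast lay in the share of cells rather than in the amount. The transcript was found in 21 of 32 low-sodium cells (65.6%, 46.8 to 81.4%) and 29 of 33 chow cells (87.9%, 71.8 to 96.6%). Among cells with the transcript the mean was 5.68 ± 1.71 in low-sodium cells and 5.87 ± 1.42 in chow cells, a gap far smaller than the SDs.

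Depth differed between the cells at 0 for Cacnb3 and the rest, in a way that changed with the 9 cells. The 11 low-sodium cells at 0 had a median of 759094 reads and the 21 with the transcript a median of 691019. Without the 9, the 9 remaining cells at 0 had a median of 798683 reads and the 14 with the transcript one of 1762676.5. In chow the 4 cells at 0 had a median of 350392 reads and the other 29 a median of 651333. With every cell thinned to 50000 reads, the depth of the shallowest, the expected share of cells with Cacnb3 was 51.6% in low sodium and 77.1% in chow. On the linear scale the diets were closer, with 55.4 ± 71.7 CPM in low-sodium cells and 75.7 ± 79.4 CPM in chow cells, a log2 ratio of mean CPM plus 1 of -0.44.

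Cacnb4 encodes the beta subunit whose loss causes ataxia and seizures in lethargic mice. Its log2(CPM + 1) ran from 0 to 7.55 with a median of 6.46 in low-sodium cells, against 0 to 8.48 with a median of 6.24 in chow cells. Over all 65 cells it was found in the most cells of the 6. It was in 30 of 32 low-sodium cells (93.8%, 79.2 to 99.2%) and 29 of 33 chow cells (87.9%, 71.8 to 96.6%). In chow Cacna1d and Cacnb3 were found in as many. The mean was 5.67 ± 1.95 in low-sodium cells and 5.21 ± 2.47 in chow cells, a difference of 0.46, and 0.59 without the 9 cells. All 36 cells with non-neuronal markers had the transcript, against 13 of 15 low-sodium and 10 of 14 chow cells without them. Among the cells without them Cacnb4 was in 79.3%, fewer than Cacna1d (86.2%) and Cacna1c (82.8%).

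**Figure D2:**
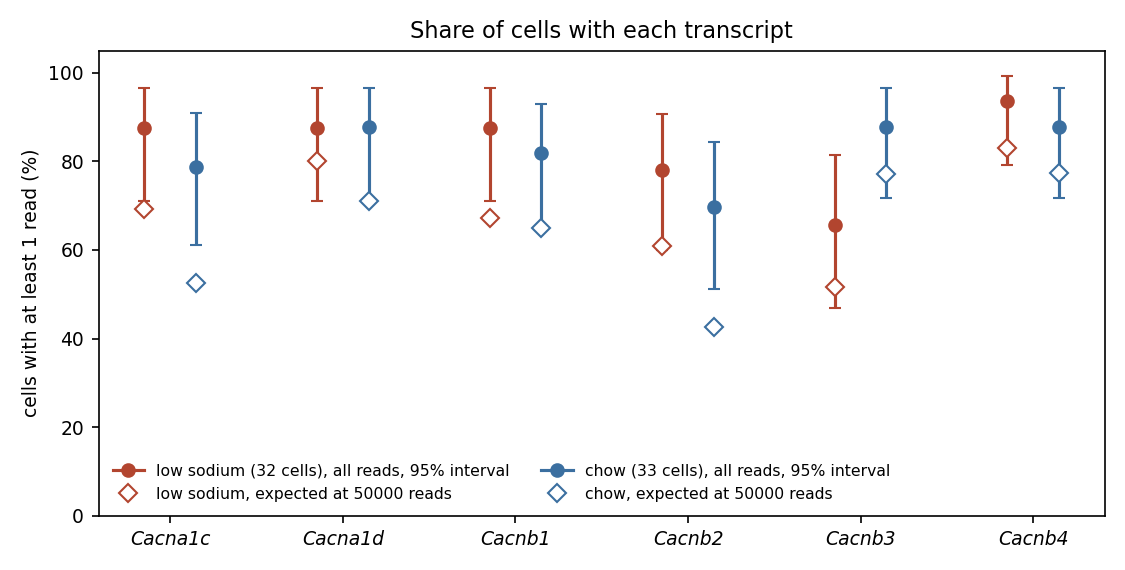
Share of cells with at least 1 read of each transcript in low-sodium (red, 32) and chow (blue, 33) cells; filled points use all reads with exact 95% intervals that cover counting error over cells only, and open diamonds are the shares expected with every cell thinned to 50000 reads. Cacnb3 is the gene with the lower low-sodium share by a wide gap, 65.6% against 87.9% in chow with all reads and 51.6% against 77.1% when thinned.

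At 50000 reads, 1 read is worth 20 CPM, so low transcripts are lost and the shares fall for all 6 genes. The expected share with Cacna1c was then 69.3% in low sodium and 52.5% in chow, and with Cacnb2 60.9% and 42.5% in the same order of diets. Cacna1d had 80.1% in low sodium and 71.0% in chow. For Cacnb1 (67.3% in low sodium and 65.0% in chow) and Cacnb4 (83.0% and 77.5%) the diets stayed close. Without the 9 cells, the low-sodium shares were 66.2% for Cacna1c, 82.2% for Cacna1d, 69.3% for Cacnb1, 59.5% for Cacnb2, 52.7% for Cacnb3 and 87.6% for Cacnb4. With all reads, the 23 cells had Cacna1c and Cacna1d in 21 each, Cacnb1 in 20, Cacnb2 in 19, Cacnb3 in 14 and Cacnb4 in 22. Which diet had the higher share over all its cells was the same at both depths for 5 genes, Cacna1d being almost equal with all reads.

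Set against all genes whose mean log2(CPM + 1) reached 1, a difference of 1 or more was not rare. Of these 10726 genes, 10.9% differed by at least 1 between the diets, 3.93% being higher and 6.99% lower in low-sodium cells. Of the 6 genes, Cacna1c, Cacna1d and Cacnb2 were higher by at least 1 and Cacnb3 lower. Without the 9 cells these shares of all genes were 9.7%, 2.96% and 6.73%, and Cacna1d and Cacnb2 were higher and Cacnb3 lower by at least 1. The median difference was 0.90 over the 6 genes (0.73 without the 9 cells) and -0.12 over all 10726 (-0.09 without them). Scaling moved the split of all genes past 1: 36.0% of them were on the higher side as deposited, 45.1% with median-of-ratios size factors and 18.9% with every cell's CPM rescaled to the same sum. Rescaling also put the median of all genes at -0.27, and on that scale the differences were 1.27 for Cacna1c, 0.93 for Cacna1d, 1.13 for Cacnb2 and -1.60 for Cacnb3. The genes had been picked with earlier results of these data known, so nothing about them as a group is read from these counts.

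The length of the gene moved with the diet difference across all genes, and 4 of the 6 are long. Genes spanning under 20 kb had a median difference of -0.26, and those of 200 kb or more had one of 0.18. Without the 9 cells the medians were -0.12 and -0.01. Cacna1c, Cacna1d, Cacnb2 and Cacnb4 all span more than 200 kb, a class in which 8.47% of genes were higher and 3.53% lower by at least 1. Without the 9 cells 3.39% of that class were higher and 6.92% lower, against 2.95% and 6.81% of all genes with a known span. Cacnb3 belongs to the class under 20 kb, in which 9.05% were lower by at least 1 (7.99% without the 9 cells). Its part in the differences of the 6 genes was not tested.

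**Figure D3:**
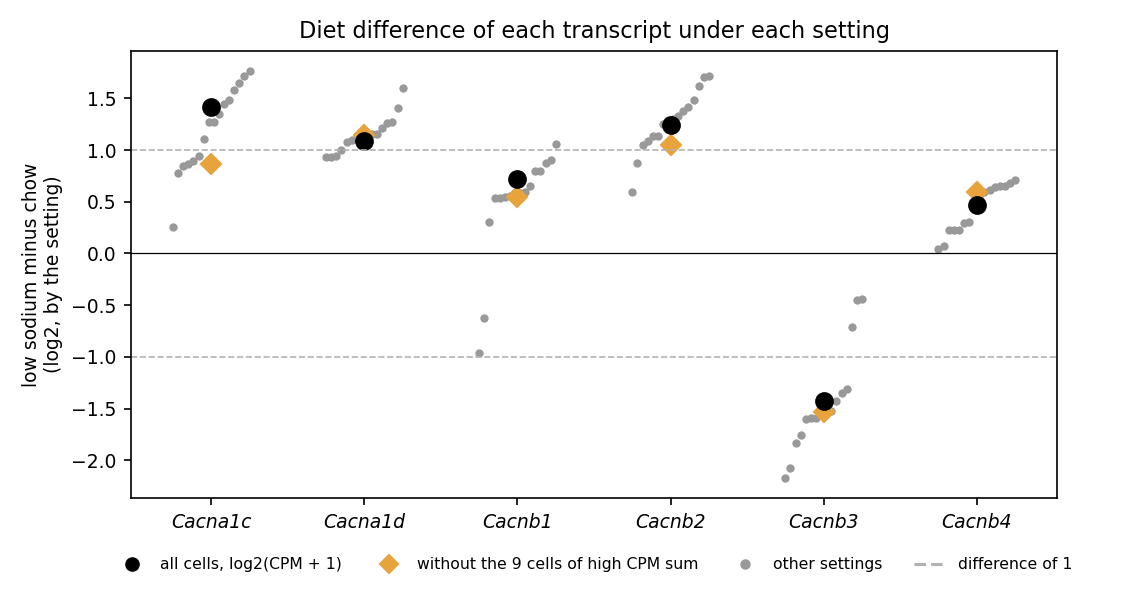
Difference between low-sodium and chow cells for each transcript under the deposited scale (black), without the 9 cells of high CPM sum (yellow) and under the other settings tried (grey, including the extremes of leaving out single cells), all on a log2 scale. Cacnb3 stays below 0 and Cacna1c, Cacna1d, Cacnb2 and Cacnb4 above it under each setting shown, while Cacnb1 takes both signs, -0.96 to 1.06.

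To compare genes with each other, CPM were divided by transcript length. By the length of all exons joined, Cacnb3 averaged 16.4 ± 18.9 CPM per kb over all 65 cells, Cacnb1 12.3 ± 17.8, Cacnb4 8.88 ± 7.18, Cacna1d 7.36 ± 8.94, Cacna1c 3.25 ± 6.38 and Cacnb2 2.32 ± 3.10 CPM per kb. Every step in this order is smaller than the SDs of the genes on either side of it. By the longest complete coding transcript the order was Cacnb3 (24.0 CPM per kb), Cacnb1 (16.4), Cacna1d (10.7), Cacnb4 (9.67), Cacnb2 (7.79) and Cacna1c (5.23). By the median coding transcript Cacnb1 (29.6 CPM per kb) stood above Cacnb3 (26.2), and Cacnb2 (14.5) was the third. The order also changed with the cells used. By all exons, Cacnb1 (16.8 CPM per kb) stood above Cacnb3 (13.8) in low-sodium cells, whereas in chow cells Cacnb3 (18.9) led and Cacnb4 (8.74) stood above Cacnb1 (7.93). Without the 9 cells of high CPM sum, Cacna1c averaged 1.63 CPM per kb over the other 56 cells, under Cacnb2 at 1.73.

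Shares within a cell do not depend on that cell's CPM scale. Of the beta subunit CPM per kb in a cell, Cacnb3 made up 25.2 ± 26.7% in 31 low-sodium cells and 41.6 ± 25.4% in 33 chow cells. Cacnb2 made up 11.2 ± 12.6% in low-sodium cells and 3.43 ± 4.67% in chow cells. Cacnb1 made up 34.3 ± 28.9% in low-sodium cells and 27.7 ± 27.1% in chow cells, and Cacnb4 29.3 ± 22.3% and 27.3 ± 23.1% in the same order. The mean makeup of low-sodium cells thus had less Cacnb3, by less than either SD, and more Cacnb2, by less than the low-sodium SD but more than the chow SD. Without the cells of high CPM sum the low-sodium shares were 24.8% for Cacnb3 and 10.3% for Cacnb2. By the longest coding transcript Cacnb2 was 21.7% in low sodium and 7.67% in chow, and Cacnb3 24.6% in low sodium and 42.8% in chow. The leading beta gene differed from cell to cell in each diet: Cacnb3 led in 12 low-sodium and 15 chow cells, Cacnb1 in 10 and 9, Cacnb4 in 9 and 9, and Cacnb2 in none when all exons were counted. These counts depended on the length used. By the longest coding transcript Cacnb2 led in 6 low-sodium cells and 1 chow cell. By the median coding transcript Cacnb1 led in 14 low-sodium and 13 chow cells, Cacnb2 in 10 and 2, Cacnb3 in 6 and 14, and Cacnb4 in 1 and 4.

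**Figure D4:**
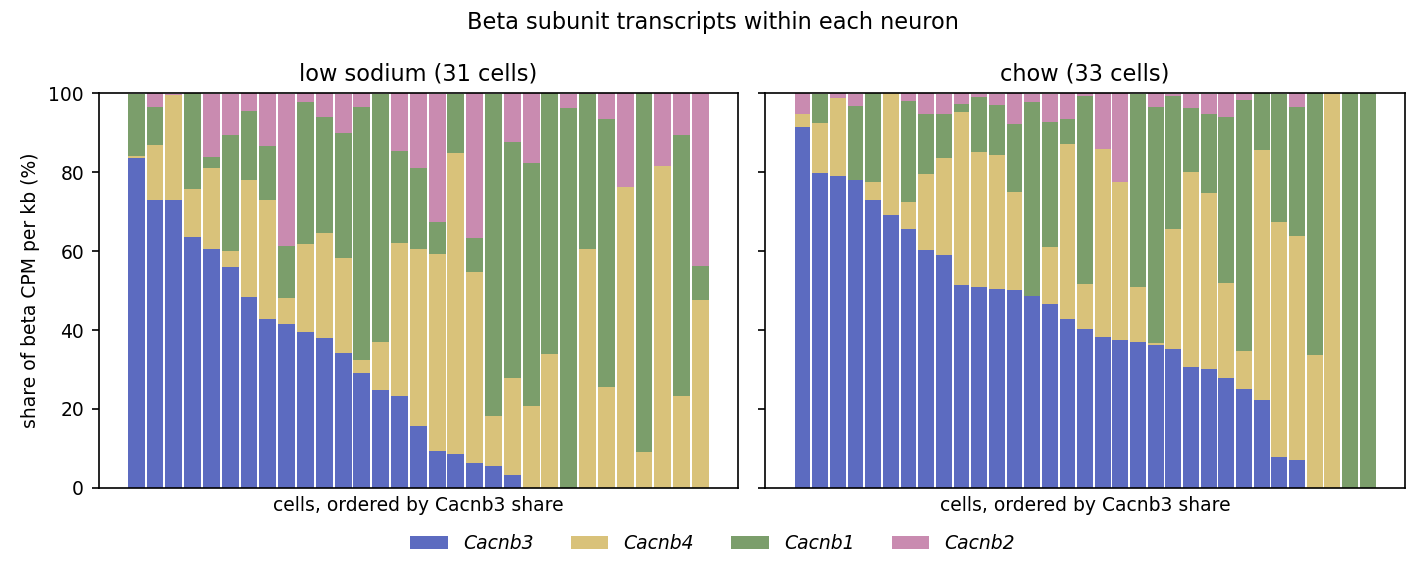
Makeup of beta subunit transcripts in each cell, as the share of the summed CPM per kb of all exons, with low-sodium cells in the left panel and chow cells in the right, ordered by the share of Cacnb3. Cells led by Cacnb3, Cacnb4 or Cacnb1 occur in both panels, and the mean Cacnb2 share is 11.2% in low-sodium cells and 3.43% in chow cells.

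The pore pair kept a similar makeup. Cacna1d made up 67.8 ± 29.4% of the summed Cacna1c and Cacna1d CPM per kb in 30 low-sodium cells and 69.5 ± 33.5% in 32 chow cells. It led in 22 of 30 low-sodium cells and 25 of 32 chow cells. In the cells of high CPM sum its share was 52.7 ± 32.2% (8 cells), and without them the low-sodium value was 73.3 ± 27.0%. By the median coding transcript Cacna1d made up 58.8% in low-sodium cells and 62.3% in chow cells, leading in 19 and 23 cells. In the 8 cells of high CPM sum it then made up 42.7%, and Cacna1c led in 5 of them.

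Most cells held transcripts of both pore genes and of several beta genes. Both pore genes were found in 26 of 32 low-sodium cells (81.3%, 63.6 to 92.8%) and 23 of 33 chow cells (69.7%, 51.3 to 84.4%). Of all 65 cells, 8 had Cacna1d alone, 5 had Cacna1c alone and 3 had neither. At least 1 pore and 1 beta gene were found in 62 of 65 cells (95.4%, 87.1 to 99.0%), and all 4 beta genes in 33. A cell held 5.00 ± 1.27 of the 6 transcripts in low sodium and 4.94 ± 1.09 in chow. Low-sodium neuron 51 held none of them, with 218943 reads and 5588 genes, and it is 1 of the 9 cells of high CPM sum.

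**Figure D5:**
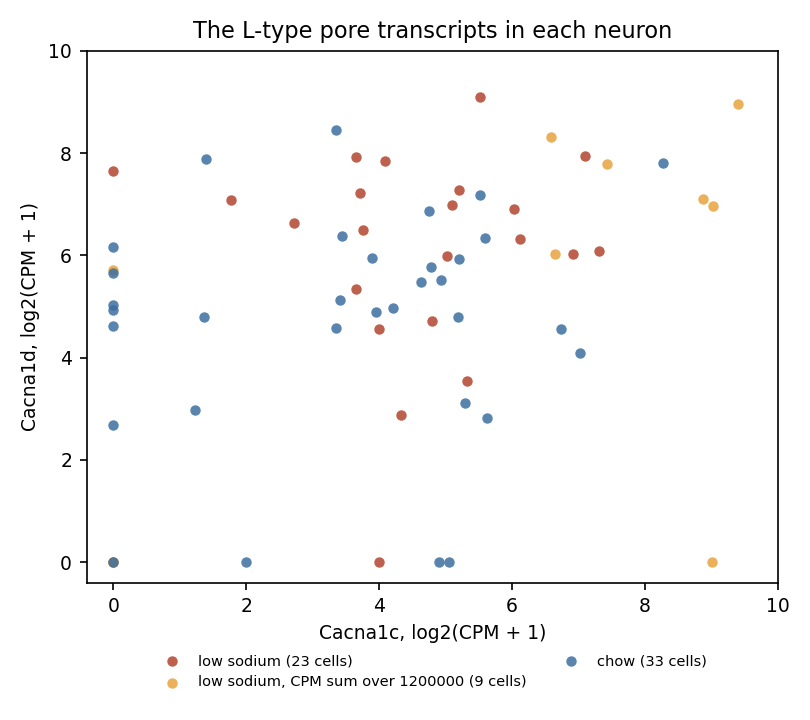
Cacna1d against Cacna1c in each cell, both in log2(CPM + 1), for low-sodium cells (red, with the 9 of high CPM sum in yellow) and chow cells (blue). Points fill most of the field, 49 of 65 cells are above 0 on both axes, and the 4 highest Cacna1c values are yellow.

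Across the 65 cells, levels of the 4 long genes were weakly correlated. Spearman's rho in log2(CPM + 1) was 0.38 between Cacna1d and Cacnb4, 0.36 between Cacna1c and Cacnb4, 0.34 between Cacna1d and Cacnb2, and 0.27 between the pore genes. Within chow cells alone the value for Cacna1d and Cacnb2 was -0.10 and that for the pore genes 0.08, and without the 9 cells the pore genes gave 0.16. Pairs with Cacnb1 or Cacnb3 lay between -0.11 and 0.16. Within chow this contrast was not seen: Cacnb2 with Cacnb3 gave 0.36, whereas pairs of the long genes reached at most 0.27, with 0.02 for Cacnb2 and Cacnb4 and 0.08 for Cacna1c and Cacnb2. All these points share the depth of their cell, and rho with reads was highest for Cacnb4 (0.27) and Cacna1d (0.18). Values this low in sparse counts are given as a description only.

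Each transcript was also set against 10446 other genes for the likeness of its pattern over the 65 cells. The highest rho was 0.68, between Cacna1d and Nav2, a neuron navigator gene, followed by Kcnq1 (0.66), a voltage-gated potassium channel, and Pnisr (0.65). For Cacna1c the likest genes were Garnl3 (0.62), Dnmt3a (0.55), a DNA methyltransferase, and Grik5 (0.54), a kainate receptor subunit. For Cacnb2 they included Nlgn1 (0.53), a postsynaptic adhesion gene, and Magi2 (0.50), a synaptic scaffold. For Cacnb4 they were Dzip3 (0.55), a ubiquitin ligase, Fam120a (0.54) and the non-coding Ftx (0.54). For Cacnb3 they were Qsox1 (0.51), a sulfhydryl oxidase, Bbs4 (0.47), a ciliary trafficking gene, and Tapbpl (0.45), and for Cacnb1 Srxn1 (0.44), an antioxidant enzyme, Kcnh2 (0.43), a potassium channel, and Slk (0.42), a kinase. No gene named here was among the likest of more than 1 of the 6, and they were picked as the highest of 10446.

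Other genes that act with these channels were listed by role: 75 genes, of which 55 were among the listed genes and 50 reached a mean log2(CPM + 1) of 1. Of the 50, 5 were higher and 2 lower by at least 1 in low-sodium cells, and 1 and 4 without the 9 cells; over all genes the shares were 3.93% higher and 6.99% lower, and 2.96% and 6.73% without the 9. Their median difference was 0.22, and 0.01 without the 9, against -0.12 and -0.09 over all genes. Cacna1f and Cacna1s, the L-type pore genes of retina and skeletal muscle, are not among the listed genes. Of 6 pore genes of other channel types, 5 reached that mean. Cacna1a, the P/Q-type pore, was higher by 1.12 (5.02 ± 2.58 in low-sodium cells, 3.90 ± 2.54 in chow cells; 0.55 without the 9), and Cacna1i, a T-type pore, by 0.89 (0.08 without the 9). Cacna1g, another T-type pore, differed by -0.44 and, without the 9, by -1.14. Cacna1e, the R-type pore, differed by 0.37 with the 9 cells and -0.82 without them. All 3 alpha2delta genes, which aid channel trafficking, had higher means in low sodium, and 2 of the 3 did without the 9 cells. Over all genes 42.1% had higher means, and 43.1% without the 9. Cacna2d1 differed by 0.68 (0.61 without the 9) and Cacna2d2 by 0.47 with the 9 cells but -0.12 without them. Of the gamma subunit family, which also includes AMPA receptor partners, Cacng4 differed by 0.63 and Cacng2 by 0.52 (0.71 and 0.75 without the 9). Cacng5, found in all 65 cells, differed by 0.34 with the 9 cells and -0.58 without them. All 4 gamma genes counted had higher means with the 9 cells and 2 did without them, against 42.1% and 43.1% of all genes.

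The RGK GTPases bind beta subunits and inhibit the channels, and their genes did not share a direction. Gem differed by -1.15 (3.73 ± 3.43 in low-sodium cells, 4.88 ± 3.00 in chow cells; -0.89 without the 9) and Rrad by -0.80 (-0.82 without the 9). Rem2, of the same family, had a mean under 1 and differed by 0.53 (0.76 without the 9).

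Among kinases, calcineurin and anchors at the channel, 14 genes were counted and 9 had higher means (7 without the 9 cells), with a median difference of 0.11 (-0.05 without them); over all genes 42.1% had higher means (43.1% without them). Camk2a differed by 0.53 with the 9 cells and -0.89 without them. Prkaca and Prkar2b, subunits of protein kinase A, differed by 0.63 and 0.61 (0.04 and 0.23 without the 9 cells). The calcium-calmodulin kinase genes Camk2d and Camk4 differed by -1.07 and -0.76 (-1.15 and -1.07 without the 9). Excitation-transcription coupling is the signalling from channel calcium to transcription in the nucleus. Of 8 genes listed for it, Nfatc3 was higher by 1.36 and the CREB coactivator gene Crtc2 by 1.23, and by 0.91 and 0.72 without the 9. Mef2c was the lowest of that list, at -0.50 (-0.75 without the 9). Of the calcium release genes, Ryr2, a ryanodine receptor, was higher by 1.36 (0.50 without the 9), while the IP3 receptor gene Itpr1 differed by -0.77 (-0.65 without the 9) and Ryr3 by -0.26 (-1.19 without the 9). Among the listed genes of the active zone, Pclo differed by 1.38 (0.92 without the 9) and Rimbp2 by 0.96 (1.09 without the 9).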

How the data were processed

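Messenger RNA of 65 single cells was measured, 32 from the low sodium diet and 33 from standard chow. The submitters' processing notes list featureCounts 1.4.6, SAMtools 0.1.19, Picard 2.5.0, HISAT2 2.0.5 and bcl2fastq and, as builds, GRCm38 and mm10. The settings, annotation, use of strand and scaling total were not given in the sources used here. In what the authors deposited, values are log2(CPM + 1) for every gene in every cell. Undoing the deposited log2 gave CPM. Each cell's low CPM (up to 20 steps, within 0.1 step) were whole multiples of a smallest step in 100% of cases, so a step was taken as 1 read. Of 12015 lines, 121 shared 60 names and 19 had serial numbers, which stayed in cell totals only.

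Diet differences are differences of mean log2(CPM + 1), low sodium minus chow. Adding 1 CPM shrinks differences of low genes, and cells at 0 are part of each mean. A gene counted as detected above 0, and differences were counted from 1 upward in size over genes with a mean of at least 1. Cells are not replicates, so no test between diets was made, and exact (Clopper-Pearson) 95% intervals cover counting error over cells only. Depth was matched by the exact expectation of drawing 50000 reads per cell. The difference and the thinning were tested on simulated data. Lengths and positions came from GENCODE M21 and promoters from RefSeq.

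The 6 genes, the lists and the settings were chosen with earlier results of these data known. Named by rule were the 6 genes, up to 2 genes in each direction of each list, and the 3 genes likest to each of the 6 by Spearman's rho among named genes above 0 in at least 16 cells. Chdh, Dcp1a, Dcp1b, Rem2, Cacna1e, Cacng5, Camk2a, Cacna1f and Cacna1s fall outside it, picked with their values known. A few genes it took are left out of the text. The limit of 1200000 on CPM sums follows values seen earlier. Python 3.11.15, numpy 2.4.6, pandas 2.3.3, scipy 1.17.1 and matplotlib 3.10.9 were used.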

Additional observations from a re-analysis of the deposited data

How the results depend on the processing

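With no animals named, none of the values has a spread between animals, and transcripts under the value of 1 read are missed. Each gene had 16 other settings, 2 of them being the lowest and highest result of leaving out a single cell. Under these 16, Cacna1c differed by 0.25 to 1.76 between diets, Cacna1d by 0.93 to 1.60 and Cacnb2 by 0.59 to 1.72. Cacnb4 differed by 0.04 to 0.71 and Cacnb3 by -2.17 to -0.44, and each of these 5 genes kept 1 direction. Cacnb1 ran from -0.96 to 1.06, with the opposite sign under 2 settings, without cells with non-neuronal markers (-0.63) and also without the 9 cells (-0.96). Differences of at least 1 in size were kept by Cacna1c under 10 settings, Cacna1d under 12, Cacnb2 under 14 and Cacnb3 under 13. Leaving out single cells gave 1.28 to 1.58, 0.94 to 1.27, 0.59 to 0.87, 1.13 to 1.37, -1.59 to -1.31 and 0.30 to 0.65 for Cacna1c, Cacna1d, Cacnb1, Cacnb2, Cacnb3 and Cacnb4. Thinning to 50000 reads brought the shares of all cells with the transcript to 60.8% for Cacna1c, 75.5% for Cacna1d, 66.1% for Cacnb1, 51.6% for Cacnb2, 64.5% for Cacnb3, 80.2% for Cacnb4 and 48.0% for both pore genes, because fewer reads were drawn. A limit of 10 CPM gave 67.7% for Cacna1c, 58.5% for Cacnb2 and 56.9% for both pore genes. Cacnb4 was found in 79.3% of cells without non-neuronal markers, and in 79.2% without the 9 cells as well; the cause was not tested. Genes higher by at least 1 numbered 422, against 87 with a pseudocount of 10 CPM, 916 with 0.1 CPM and 257 with rescaled CPM. Those lower numbered 750, against 39 with 10 CPM and 1758 with 0.1 CPM. With the pseudocount of 10 CPM, 69.0% of genes past 1 were on the higher side. Within chow cells rho was -0.10 for Cacna1d with Cacnb2 and -0.35 for Cacnb1 with Cacnb4; the cause was not tested. The settings that combine 2 changes were chosen after seeing the data. No paired analysis was possible because the neuron numbers only name cells and no test was run.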
